A study of Macaca mulatta with 43 samples.

Results

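The genes described here are 8 markers of astrocytes: GFAP, AQP4, SLC1A2, SLC1A3, ALDH1L1, GJA1, S100B and GLUL. They were measured in medial prefrontal cortex (PFC) of rhesus macaques that drank ethanol for 1 year and of their controls. A gene was represented by each probeset of the Affymetrix GeneChip Rhesus Macaque Genome Array to which the array's probe table gives that gene's symbol and no other. By this rule 6 of the 8 genes had a probeset, 12 probesets in all out of 24956 with a single gene symbol and 52865 on the array. AQP4, the water channel of astrocyte end-feet, and GJA1, the main gap junction protein of astrocytes, had none and are not analysed here. Of the 12 probesets, 10 passed the filter on low values and were among the 23815 tested. The 2 that did not pass are both assigned to GLUL, and lay under 3.5 on the log2 scale on 40 and on 43 of the 43 arrays.

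Astrocytes take up the glutamate that neurons release, turn it into glutamine, buffer potassium and water, and supply neurons with fuel. When cortex is injured or stressed many of them become reactive, which is commonly read from a rise of the intermediate filament protein GFAP. Frontal cortex astrocytes are of interest in alcohol research because ethanol alters glutamate signaling, and because both loss and reactivity of astrocytes have been described after long exposure to alcohol.

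The animals were adult males aged 5 to 11 years, and RNA of their Brodmann areas 24, 25 and 32, which lie in the anterior cingulate and below the genu, was pooled for each animal and put on 1 array. The ethanol group held 32 animals, which were induced to drink by schedule-induced polydipsia and then had water and 4% (w/v) ethanol for 22 h per day. The control group held 11 animals, which had water and a maltose dextran solution matched in calories to a drinker. Cohort 4 had 11 drinkers and no control, cohort 5 had 8 drinkers and 5 controls, cohort 7a had 8 drinkers and 4 controls, and cohort 7b had 5 drinkers and 2 controls. RNA of cohorts 4 and 5 was extracted with the RNeasy Mini kit and RNA of cohorts 7a and 7b with the AllPrep kit, and the arrays were run in 8 processing batches that never mixed these 2 sets of cohorts. Differences between the sets therefore cannot be told apart from kit and processing. Values are Robust Multi-array Average (RMA) values on the log2 scale, so that 1 unit is a doubling of signal. The number of arrays, above all the 11 controls, limits the precision of every comparison. In bulk cortex, fewer cells of a type and less RNA per cell cannot be told apart.

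Beta-actin is probed near both ends of its transcript, and its 3′ value minus its 5′ value moves with the length of the RNA that reaches the array. This value was 4.31 to 4.83 in cohort 4 drinkers, 4.36 to 4.95 in cohort 5 drinkers and 4.24 to 4.74 in cohort 5 controls. In cohort 7a it was 0.93 to 1.60 in drinkers and 0.76 to 0.87 in controls, with no overlap. In cohort 7b it was 0.76 to 1.71 in drinkers, against 0.75 and 0.81 in controls. Each result from cohorts 7a and 7b was therefore refitted with this value, with the study's RNA integrity numbers and with processing batch.

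Signal differs between probesets with the affinity of their probes, so each level below describes its own probeset and sets no order among genes. Over the 43 arrays, the brightest probeset of each gene averaged 13.39 for GLUL (MmugDNA.41364.1.S1_at), 13.12 for SLC1A3 (MmuSTS.3835.1.S1_at), 12.99 for SLC1A2 (MmugDNA.6136.1.S1_at), 12.25 for GFAP (MmuSTS.4827.1.S1_at), 11.84 for S100B (MmuSTS.2362.1.S1_at) and 8.51 for ALDH1L1 (MmugDNA.32182.1.S1_at). The highest value of any probeset on any array was 14.51. The remaining tested probesets were GFAP MmuSTS.1721.1.S1_at (mean 8.82), a dimmer SLC1A3 probeset (10.22), GLUL MmugDNA.15517.1.S1_at (11.17) and GLUL MmugDNA.10582.1.S1_at (4.67). The last of these is listed under another gene record than the other GLUL probesets, so its assignment is less sure. The 12 probesets are not independent, since 3 of the genes had more than 1.

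**Figure D1:**
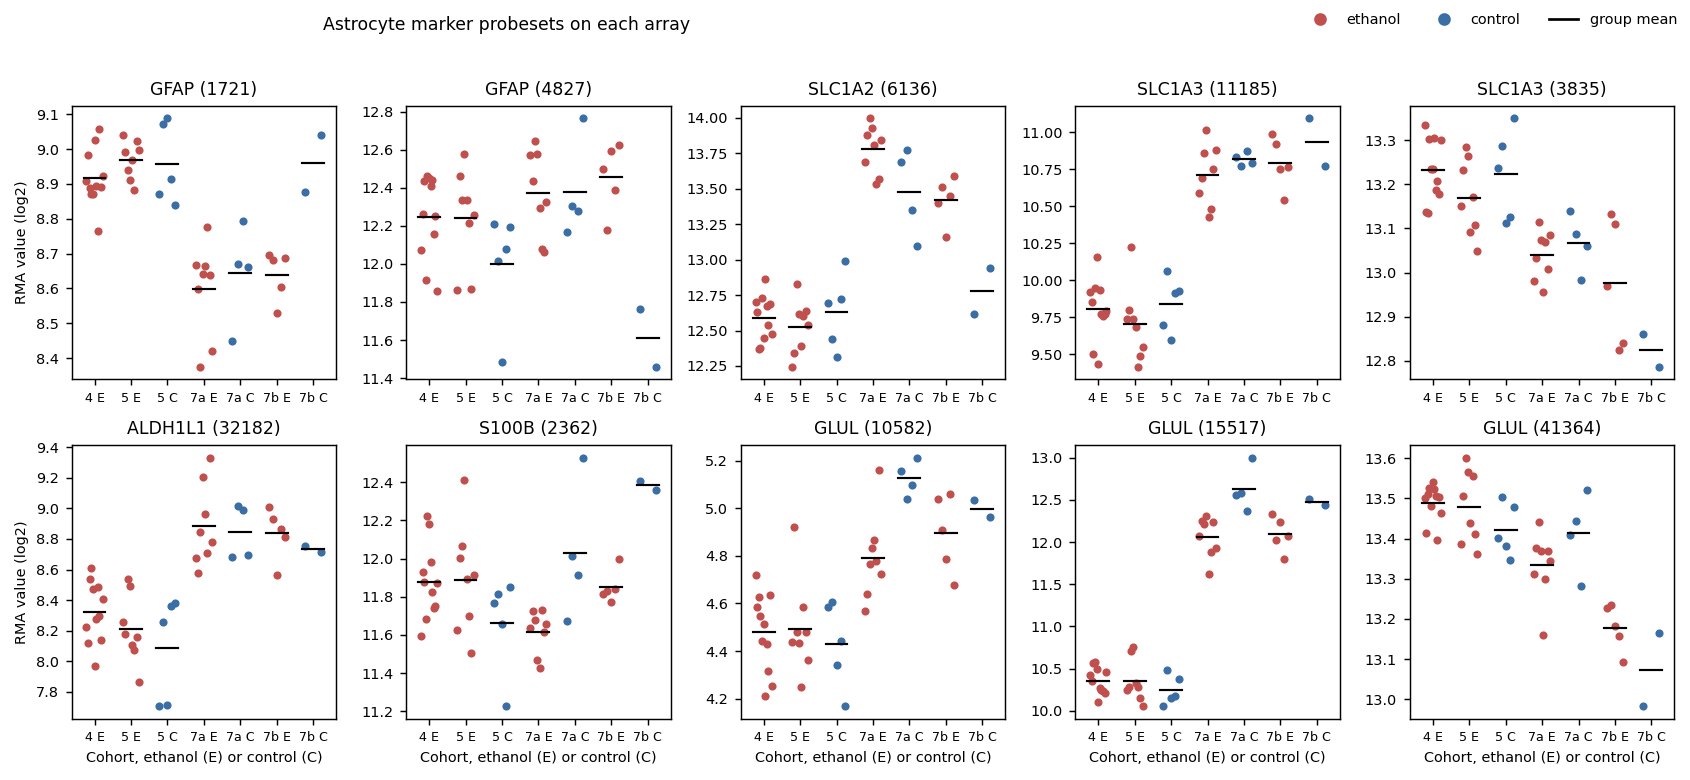
RMA value (log2, vertical axis) of the 10 tested probesets on each of the 43 arrays, by cohort with drinkers (E, red) left of controls (C, blue). Points are animals, black lines are group means, and the number after a gene is that within the probeset's name. S100B MmuSTS.2362.1.S1_at lies at 12.36 and 12.41 in the 2 cohort 7b controls and at 12.53 in 1 cohort 7a control, above every drinker of those cohorts, while GLUL MmugDNA.15517.1.S1_at sits near 10 in cohorts 4 and 5 and near 12 in cohorts 7a and 7b.

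Between the 2 sets of cohorts the probesets of 1 gene did not move together. Drinkers of cohorts 7a and 7b exceeded drinkers of cohorts 4 and 5 by 1.72 on the log2 scale for GLUL MmugDNA.15517.1.S1_at, but the difference was -0.21 for GLUL MmugDNA.41364.1.S1_at. For SLC1A3 it was 0.98 for the dimmer probeset and -0.19 for MmuSTS.3835.1.S1_at. SLC1A2 differed by 1.08, ALDH1L1 by 0.59, S100B by -0.17, and the GFAP probesets by 0.16 (MmuSTS.4827.1.S1_at) and -0.32 (MmuSTS.1721.1.S1_at). Across all 23815 tested probesets the median of this difference was 0.02, and 4.17% of them differed by more than 1 in either direction. Cohort set, kit and processing cannot be told apart in them.

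The first comparison asked whether drinkers as a whole differed from controls, in a fit without a block. Cohorts 7a and 7b gave 13 of the 32 drinkers and 6 of the 11 controls, and cohort 4 had no control. Differences in this fit therefore mix treatment with the set of cohorts. None of the 10 probesets was called, at a Benjamini-Hochberg adjusted p under 0.05 over all tested probesets in limma, where 16% of all tested probesets were called. At an unadjusted p under 0.05 there was 1, GFAP MmuSTS.4827.1.S1_at, against 31.1% of all probesets. The median difference of the 10 was 0.00, against -0.04 over all tested probesets, and 5 of the 10 were positive.

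GFAP, the filament protein used to recognize reactive astrocytes, gave the largest positive difference with this probeset. MmuSTS.4827.1.S1_at ranged from 11.86 through a median of 12.34 to 12.64 in the 32 drinkers, and from 11.46 through 12.17 to 12.77 in the 11 controls. The ranges overlapped, with the highest value in a cohort 7a control, and the means were 12.31 ± 0.23 in drinkers and 12.07 ± 0.38 in controls (SD). The log2 difference was 0.24 (SE 0.09, 95% interval 0.05 to 0.43, limma adjusted p = 0.0685). With cohort as a block it was 0.27 and was called (adjusted p = 0.0262), and 33.1% of all probesets were called in that fit. With processing batch as a block it was 0.25 and was not called (adjusted p = 0.0542, 22.5% of all probesets called). With cohort and the RNA integrity number, which leaves out 1 control, it was 0.17 (adjusted p = 0.389). The second GFAP probeset, MmuSTS.1721.1.S1_at, differed by -0.04 (95% interval -0.17 to 0.10, adjusted p = 0.739), so the gene's 2 probesets did not show 1 direction.

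The other called probeset with cohort as a block was GLUL MmugDNA.15517.1.S1_at. GLUL encodes glutamine synthetase, which converts glutamate and ammonia to glutamine. Its difference was -0.24 (adjusted p = 0.0285) with the cohort block, -0.14 (adjusted p = 0.244) with the batch block and -0.47 (SE 0.33) with neither, and the brighter MmugDNA.41364.1.S1_at differed by 0.04 (95% interval -0.06 to 0.14). So 2 of 10 probesets were called with the cohort block and 0 of 10 with the batch block, both below the share among all probesets.

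Of the remaining genes, SLC1A2 encodes the main glutamate transporter of cortical astrocytes and differed by 0.04 (95% interval -0.34 to 0.41). With cohort as a block SLC1A2 differed by 0.20 (0.03 to 0.36, unadjusted p = 0.0244 and adjusted p = 0.0677 in limma), and with processing batch by 0.18 (-0.01 to 0.37, adjusted p = 0.173). SLC1A3, the second astrocyte glutamate transporter, differed by 0.03 (-0.07 to 0.14) with MmuSTS.3835.1.S1_at and by -0.23 (-0.60 to 0.13) with the dimmer probeset. ALDH1L1, an enzyme of folate metabolism that marks astrocytes broadly, differed by 0.04 (-0.23 to 0.30). With cohort as a block ALDH1L1 differed by 0.09 (-0.07 to 0.25). With processing batch it differed by 0.17 (0.005 to 0.33, unadjusted p = 0.0441 and adjusted p = 0.128 in limma). S100B, a calcium-binding protein of astrocytes that some oligodendrocytes also make, differed by -0.12 (-0.30 to 0.07). None of these 4 was called, with limma adjusted p-values from 0.394 to 0.918 without a block.

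Within cohorts, drinkers were set against the controls of their own cohort in a fit of 7 group means. In cohort 5 none of the 10 probesets was called, at a share of 0% of all tested probesets. There were 0 of 10 at an unadjusted p under 0.05 in limma as well, against 3.04% of all probesets. The 2 widest differences there were 0.24 for GFAP MmuSTS.4827.1.S1_at (95% interval -0.02 to 0.51) and 0.23 for S100B (-0.02 to 0.47).

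In cohort 7a 4 of 10 probesets were called, where 30.7% of all tested probesets were. In cohort 7b 4 of 10 were called as well, where 40% of all tested probesets were. These shares are near the background, so the counts say nothing particular about the marker genes, and what follows describes the single genes. Of the calls in cohort 7a, 1 was higher and 3 were lower in drinkers. Of those in cohort 7b, 2 were higher and 2 lower. With each array centered on its median, the count was 3 in cohort 7a and 6 in cohort 7b. That centering also moved the share of higher ones among all calls to 55.0% in cohort 7a and 50.2% in cohort 7b, against 34.7% and 34.95% as deposited.

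**Figure D2:**
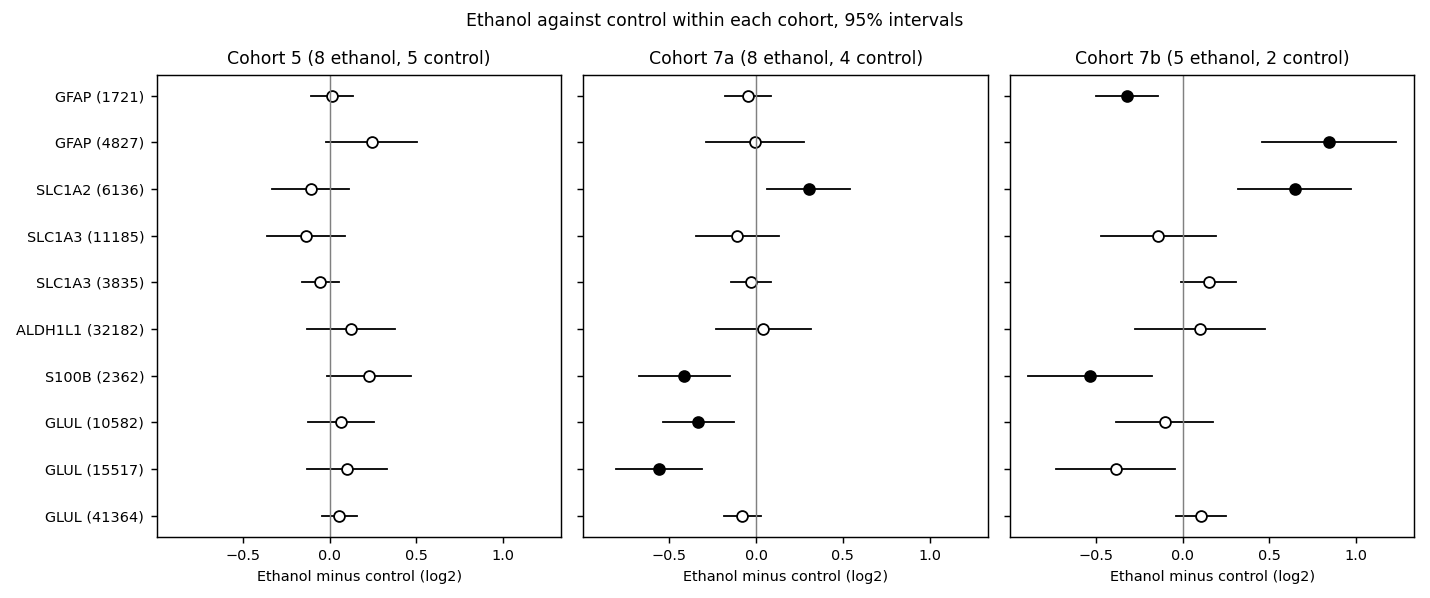
Log2 difference of drinkers minus controls (horizontal axis) for the 10 tested probesets within cohorts 5, 7a and 7b. Points are estimates from the fit of 7 group means, lines are 95% intervals, and filled points have a limma adjusted p under 0.05. No point is filled in cohort 5, and the 2 GFAP probesets lie on opposite sides of 0 in cohort 7b (0.84 and -0.32).

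S100B was lower in drinkers of both cohort 7a and cohort 7b. In cohort 7a it ranged from 11.43 through a median of 11.65 to 11.73 in the 8 drinkers, against 11.67, 11.91, 12.01 and 12.53 in the 4 controls. In cohort 7b it was 11.77, 11.82, 11.83, 11.84 and 11.999 in drinkers, against 12.36 and 12.41 in controls. All 5 drinkers of cohort 7b lay below both controls, and in cohort 7a 3 of the 4 controls lay above every drinker. The differences were -0.41 (SE 0.13, 95% interval -0.67 to -0.15, limma adjusted p = 0.0128) in cohort 7a and -0.53 (SE 0.18, -0.89 to -0.18, adjusted p = 0.0136) in cohort 7b. As folds, these were 0.751 and 0.691. Without the highest control of cohort 7a the difference there was -0.25 and was not called (adjusted p = 0.170). With either control of cohort 7b left out the difference there stayed between -0.56 and -0.51 but was not called, with adjusted p-values of 0.0658 and 0.102. The cohort 7b call was also lost with processing batch (-0.53, adjusted p = 0.0609). With the RNA integrity number, a fit with a lone control in cohort 7b, the difference there was -0.66.

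In cohort 5 S100B ran the other way, from 11.50 through a median of 11.90 to 12.41 in the 8 drinkers, against 11.23, 11.66, 11.77, 11.81 and 11.85 in the 5 controls. Those groups overlapped, with 5 of the 8 drinkers above every control. Because S100B is also made by oligodendrocytes, the mean level of 5 oligodendrocyte marker genes is given beside it. It was 9.23 to 10.37 in drinkers and 9.40 to 10.24 in controls of cohort 7a, and 9.21 to 10.48 in drinkers against 9.995 and 10.03 in controls of cohort 7b. In both cohorts the drinkers' range spanned that of the controls, but the median was lower in drinkers, at 9.63 against 9.96 in controls of cohort 7a and 9.29 against 10.01 in controls of cohort 7b. In cohort 5 it was 9.74 to 10.32 in drinkers, with a median of 10.04, and 9.64 to 9.95 in controls, with a median of 9.82. The median log2 difference of the 5 genes was 0.19 in cohort 5 (5 of 5 positive), -0.21 in cohort 7a and -0.45 in cohort 7b (1 of 5 positive in each). The oligodendrocyte markers thus ran in the direction of S100B in all 3 cohorts, and the part of these cells in the S100B values was not tested.

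SLC1A2, the main glutamate transporter, was higher in drinkers of cohorts 7a and 7b. In cohort 7b it was 13.16, 13.40, 13.45, 13.51 and 13.59 in drinkers, against 12.61 and 12.94 in controls, with no overlap. In cohort 7a it ranged from 13.53 through a median of 13.83 to 13.998 in the 8 drinkers, against 13.10, 13.35, 13.69 and 13.77 in the 4 controls. There 2 controls lay below every drinker and the other two within the drinkers' range. The difference was 0.65 (SE 0.16, 95% interval 0.32 to 0.97, adjusted p = 0.00129) in cohort 7b, a fold of 1.56. In cohort 7a it was 0.30 (SE 0.12, 0.06 to 0.54, adjusted p = 0.0472), a fold of 1.23. The cohort 7a call was lost with the actin value in the fit (0.20, adjusted p = 0.314), with the RNA integrity number (0.28, adjusted p = 0.103) and in a fit of cohort 7a alone (adjusted p = 0.0917). It was lost as well without the lowest control of that cohort, the animal that was highest in S100B (0.18, adjusted p = 0.319), and with any of 6 others of its 12 animals left out, where the difference was 0.26 to 0.30. Without the lower control of cohort 7b the difference there was 0.48, and with the RNA integrity number it was 0.41. Each of these fits had a lone control in cohort 7b.

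The second glutamate transporter showed no called difference in any cohort. For SLC1A3 the differences were -0.05, -0.03 and 0.15 with MmuSTS.3835.1.S1_at in cohorts 5, 7a and 7b, and -0.13, -0.11 and -0.14 with the dimmer one. The 95% intervals of MmuSTS.3835.1.S1_at were -0.16 to 0.05, -0.14 to 0.09 and -0.01 to 0.31. Those of the dimmer probeset were wider, -0.36 to 0.09, -0.35 to 0.13 and -0.47 to 0.19.

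GLUL was lower in drinkers of cohort 7a with 2 of its 3 tested probesets. MmugDNA.15517.1.S1_at ranged from 11.62 through a median of 12.15 to 12.31 in drinkers, against 12.36, 12.56, 12.58 and 12.998 in controls. No drinker reached the lowest control, and this also held over cohorts 7a and 7b together, where 13 drinkers reached at most 12.33 and 6 controls lay at 12.36 or above. The difference was -0.56 (SE 0.12, 95% interval -0.81 to -0.31, adjusted p = 0.000597) in cohort 7a, a fold of 0.678. In cohort 7b it was -0.39 (-0.73 to -0.04, adjusted p = 0.0655). With the actin value in the fit the cohort 7a difference was -0.33 and was not called (adjusted p = 0.0603). Within groups this probeset ran against the actin value, at r = -0.66 over 19 arrays of cohorts 7a and 7b and r = -0.37 over 24 arrays of cohorts 4 and 5, arrays that share kit and normalization within each set.

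MmugDNA.10582.1.S1_at, the GLUL probeset with the less sure assignment, differed by -0.33 in cohort 7a (SE 0.10, adjusted p = 0.0107), where 7 of 8 drinkers lay below every control. With each array centered on its median it was -0.27 (adjusted p = 0.0564). The brightest GLUL probeset, MmugDNA.41364.1.S1_at, ranged from 13.16 through a median of 13.36 to 13.44 in drinkers of cohort 7a, against 13.28, 13.41, 13.44 and 13.52 in controls. Those groups overlapped, and the difference was -0.08 (95% interval -0.19 to 0.03, adjusted p = 0.259). In cohort 7b it was 0.10 (-0.04 to 0.25). The GLUL probesets thus disagreed on whether drinkers of cohort 7a differed from their controls.

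GFAP differed in cohort 7b, in opposite directions for its 2 probesets. MmuSTS.4827.1.S1_at was 12.18, 12.39, 12.50, 12.59 and 12.63 in drinkers of cohort 7b, against 11.46 and 11.76 in controls. MmuSTS.1721.1.S1_at was 8.53, 8.61, 8.68, 8.69 and 8.70 in drinkers, against 8.88 and 9.04 in controls. Neither probeset's groups overlapped. The difference was 0.84 (SE 0.19, 95% interval 0.46 to 1.23, adjusted p = 0.000411) for the first, a fold of 1.80, and -0.32 (SE 0.09, -0.50 to -0.14, adjusted p = 0.00345) for the second. In cohort 7a the same probesets differed by -0.01 (-0.29 to 0.28) and -0.05 (-0.18 to 0.09), and whether the effects in cohorts 7a and 7b differed was not tested. The positive difference of MmuSTS.4827.1.S1_at was called under every alternative run for cohort 7b. The negative one of MmuSTS.1721.1.S1_at was lost with processing batch (-0.19, adjusted p = 0.171), with the RNA integrity number (-0.30, adjusted p = 0.165), in a fit of cohort 7b alone (adjusted p = 0.0575) and without 1 of its controls (-0.24, adjusted p = 0.117). One of the 2 cohort 7b controls had no RNA integrity number, so fits with that number compared 5 drinkers with 1 control.

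ALDH1L1 differed by 0.12, 0.04 and 0.10 in cohorts 5, 7a and 7b, with intervals of -0.13 to 0.38, -0.23 to 0.32 and -0.27 to 0.48. Its values in cohort 7a were 8.58 through a median of 8.81 to 9.33 in drinkers, against 8.68, 8.69, 8.99 and 9.01 in controls. The control values lay wholly within those of the drinkers.

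Markers of other cell types were called in these cohorts too, at shares below those of all genes. Of 47 tested markers of 7 other cell types, 9 were called in cohort 7a (3 higher and 6 lower in drinkers). In cohort 7b 17 were called (6 higher and 11 lower). These are 19.1% and 36.2% of them, against 30.2% and 41.8% of all genes, so the counts say nothing particular about these markers. The mean of 9 neuronal marker genes was 10.23 to 10.42 in drinkers and 9.97 to 10.19 in controls of cohort 7a, and 10.22 to 10.43 in drinkers against 10.08 and 10.10 in controls of cohort 7b. The mean of 13 microglial marker genes was 7.39 to 7.69 in drinkers and 7.62 to 8.01 in controls of cohort 7a, and 7.51 to 7.67 in drinkers against 7.73 and 7.85 in controls of cohort 7b. The mean of 9 endothelial marker genes was 6.78 to 7.16 in drinkers and 6.89 to 7.31 in controls of cohort 7a, and 6.53 to 6.77 in drinkers against 7.03 and 7.11 in controls of cohort 7b. For comparison, the mean of the 6 astrocyte genes was 12.07 to 12.29 in drinkers and 12.13 to 12.28 in controls of cohort 7a, and 12.06 to 12.16 in drinkers against 11.90 and 11.91 in controls of cohort 7b. The neuronal mean of drinkers lay above that of controls in cohort 7a without overlap, but 1 gene carried much of it. GAD2, an enzyme that makes the transmitter GABA, differed by 1.51 in cohort 7a and 2.22 in cohort 7b, while the median of the 9 genes was 0.08 and 0.09. The mean of 5 oligodendrocyte precursor genes was 7.07 to 7.58 in drinkers and 7.30 to 7.55 in controls of cohort 7a, and 7.09 to 7.40 in drinkers against 6.87 and 6.88 in controls of cohort 7b. The astrocyte mean overlapped between groups in cohort 7a and did not in cohort 7b. The neuronal, oligodendrocyte precursor, microglial and endothelial means did not overlap in cohort 7b either, but the oligodendrocyte, mural and ependymal means did. That of 4 mural genes was 6.82 to 8.70 in drinkers against 6.99 and 7.47 in controls. That of 2 ependymal and choroid plexus genes was 5.75 to 5.90 against 5.77 and 5.82. With 5 drinkers and 2 controls groups can separate readily, and the share of all genes that did so was not counted. The 6 astrocyte genes did not move alike in cohort 7b. GFAP, entered by MmuSTS.4827.1.S1_at, differed by 0.84 and SLC1A2 by 0.65, but S100B by -0.53. SLC1A3, ALDH1L1 and GLUL differed by 0.15, 0.10 and 0.10, and the GFAP probeset left out of the mean by -0.32. The part of cell composition in the results was not tested.

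Whether the effect of ethanol in cohorts 7a and 7b differed from that in cohort 5 was tested directly, as the mean of the effects in cohorts 7a and 7b minus the effect in cohort 5. It differed for 3 of the 10 probesets, where 31.4% of all tested probesets were called, so this share is that of the background as well. With each array centered on its median the share of higher ones among all calls was 51.1%, against 32.7% as deposited.

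S100B had the largest such difference, -0.70 (SE 0.16, 95% interval -1.03 to -0.37, adjusted p = 0.000879), which lay at the 3.64th percentile of all tested probesets. SLC1A2 differed by 0.58 (SE 0.15, 0.28 to 0.88, adjusted p = 0.00235) and GLUL MmugDNA.15517.1.S1_at by -0.57 (SE 0.16, -0.89 to -0.26, adjusted p = 0.00401). The S100B difference stayed called, between -0.77 and -0.59, under each of the 7 alternatives and with each of the 32 animals left out. Those of SLC1A2 and GLUL stayed called with each animal left out, with processing batch and with the actin value, and were lost with the RNA integrity number (0.46, adjusted p = 0.0868, and -0.52, adjusted p = 0.0663). The fit with that number had a lone control in cohort 7b. Since the cohorts differ in kit, processing and RNA length, the cohort and these factors cannot be told apart.

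**Figure D3:**
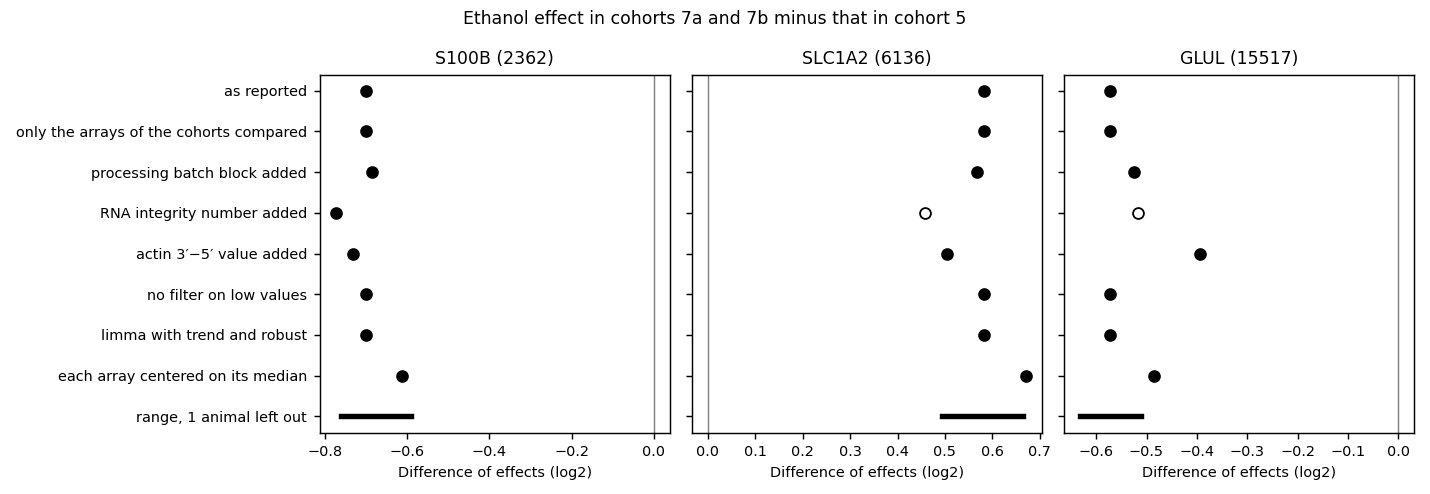
Ethanol effect in cohorts 7a and 7b minus that in cohort 5 (log2, horizontal axis) for the 3 probesets called, under each setting (rows). Filled points have a limma adjusted p under 0.05, and the thick line at the bottom spans the estimates with 1 of 32 animals left out. S100B is filled in every row, between -0.77 and -0.61, while SLC1A2 and GLUL are open with the RNA integrity number.

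Within processing batches the direction of S100B followed the same split. Drinkers averaged 11.89, 11.92 and 11.83 in the 3 batches of cohorts 4 and 5, against 11.79, 11.66 and 11.54 in controls of the same batches. They averaged 11.73, 11.70, 11.72 and 11.54 in the 4 batches of cohorts 7a and 7b that held a control, against 11.84, 11.91, 12.45 and 12.41 in controls. So drinkers were higher in all 3 of the first and lower in all 4 of the second, in batches that each held 1 or 2 controls. These batches mix cohorts. The controls of the first 3 were all of cohort 5 and their drinkers of cohorts 4 and 5, and the batch with the widest S100B and SLC1A2 differences set 3 drinkers of cohort 7a against 1 control of cohort 7b, so there batch and cohort are not separate. GLUL MmugDNA.15517.1.S1_at likewise had differences of 0.12, 0.16 and 0.09 in the first 3 batches and -0.37, -0.13, -0.59 and -0.57 in the other four. SLC1A2 differences were mixed, at 0.03, 0.29 and -0.38 in the first 3, and -0.19, 0.59, 0.52 and 1.14 in the other four. The last batch of cohorts 7a and 7b held no control.

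Cohorts 4 and 5 were processed together, and their drinkers were compared to see how far drinkers of separate cohorts differ. None of the 10 probesets was called, at 0% of all tested probesets, and 0 of 10 had an unadjusted p under 0.05 in limma, against 3.76% of all. The differences ran from -0.05 (GFAP MmuSTS.1721.1.S1_at) to 0.11 (ALDH1L1). Every estimate was smaller in size than the called differences within cohorts 7a and 7b, but those had been picked by passing the threshold. Differences not called there could be small as well, such as -0.01 for GFAP MmuSTS.4827.1.S1_at in cohort 7a. The 2 sets of sizes therefore cannot be weighed against each other.

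The amount that an animal drank was fitted as mean daily intake in g/kg among the 32 drinkers. None of the 10 probesets was called, at 0% of all tested probesets, and 0 of 10 had an unadjusted p under 0.05 in limma, against 2.10% of all. Slopes ran from -0.11 (the dimmer SLC1A3 probeset, 95% interval -0.32 to 0.10) to 0.04 (GLUL MmugDNA.10582.1.S1_at, -0.07 to 0.14) per g/kg. With cohort as a block, 1 of 10 had an unadjusted p under 0.05, namely the dimmer SLC1A3 probeset with a slope of -0.12 (-0.23 to -0.01, adjusted p = 0.999), against 4.01% of all probesets. Within groups this probeset ran against the actin value (r = -0.53 in cohorts 4 and 5, -0.60 in cohorts 7a and 7b), which was not in the slope fits. Without a block, 2 further slopes were as follows. GFAP MmuSTS.4827.1.S1_at had a slope of -0.02 (-0.12 to 0.07) and S100B of 0.00 (-0.09 to 0.09).

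Animals of 1 group differed in several markers at once. With each probeset centered within its cohort and treatment, GLUL MmugDNA.41364.1.S1_at followed GLUL MmugDNA.15517.1.S1_at at r = 0.66 over 43 arrays and SLC1A3 MmuSTS.3835.1.S1_at at r = 0.57. GFAP MmuSTS.4827.1.S1_at followed S100B at r = 0.56, with 0.61 in cohorts 4 and 5 and 0.47 in cohorts 7a and 7b. The dimmer SLC1A3 probeset followed ALDH1L1 at r = 0.51, with 0.59 and 0.35 in those sets. That SLC1A3 probeset also ran against the actin value, at r = -0.53 and -0.60 in those sets, and ALDH1L1 did so at -0.39 and -0.14. The part of RNA length in these correlations was not tested. The 2 SLC1A3 probesets followed each other at r = 0.52, while the 2 GFAP probesets ran against each other at r = -0.35, with -0.45 in cohorts 4 and 5 and -0.26 in cohorts 7a and 7b. The 2 probesets that carry the GFAP symbol therefore disagreed among animals of 1 group as well as between groups. These correlations are descriptions over arrays that share batches and normalization.

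**Figure D4:**
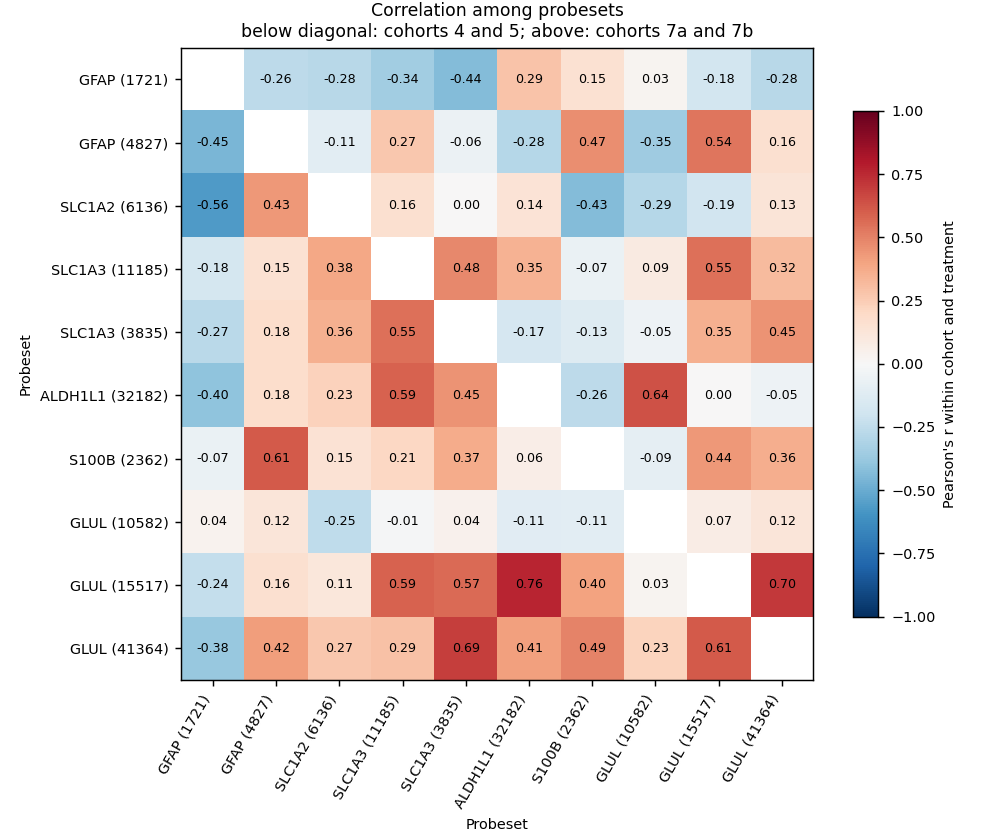
Pearson's r between the 10 tested probesets after centering within cohort and treatment, with cohorts 4 and 5 (24 arrays) below the diagonal and cohorts 7a and 7b (19 arrays) above it. Red is positive and blue negative. GFAP MmuSTS.1721.1.S1_at is negative with GFAP MmuSTS.4827.1.S1_at in both sets (-0.45 and -0.26).

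Set against the mean of the other five genes' standardized values, GLUL had the closest likeness (r = 0.60), followed by SLC1A3 (0.41), GFAP (0.39), S100B (0.35), SLC1A2 (0.23) and ALDH1L1 (0.17). The genes outside the list most like the mean of the 6 were BMP2K (r = 0.70), LOC695135 (0.68), SEPTIN2 (0.67), APOE (0.67), LRIG1 (0.66), CD63 (0.66), NR2E1 (0.66), AXL (0.66), DLGAP5 (0.64) and ALDOC (0.64), over 43 arrays. Within the sets of cohorts r ran from 0.40 for DLGAP5 in cohorts 7a and 7b to 0.86 for the same gene in cohorts 4 and 5. The 10 genes were picked by r over these same arrays, so positive values in both sets follow from the choice and are no separate support.

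Beyond the markers, 117 further genes of astrocyte function were listed in 9 groups, of which 74 had a tested probeset. Each gene was represented by its brightest probeset, and 9 of the 74 were called between drinkers and controls, 6 higher and 3 lower. That is 12.2%, against 16.5% of all genes so represented. With cohort as a block 23 were called, 10 higher and 13 lower, which is 31.1% against 33.2% of all genes. The counts over all animals below are from the fit without a block unless the block is named. With it, adhesion genes had 2 higher and 1 lower of 6, receptors and secreted factors 2 higher and 4 lower of 12, and transcription factors 1 higher and 2 lower of 11. In cohort 5 none of 74 was called in limma (3 at an unadjusted p under 0.05), in cohort 7a 22 were (8 higher and 14 lower, 29.7% against 30.2% of all genes) and in cohort 7b 37 were (17 higher and 20 lower, 50% against 41.8%). So the share called was below or close to that of all genes over all animals and in cohort 7a, and above it in cohort 7b, a difference that was not tested.

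Among adhesion and gap junction genes, 2 of 6 were higher in drinkers as a whole. These were NCAM1, a neural cell adhesion molecule that neurons also express (0.31, SE 0.05, adjusted p = 0.000815), and CADM1, another adhesion molecule (0.30, SE 0.08, adjusted p = 0.0137). In cohort 5 NCAM1 differed by 0.08 and CADM1 by -0.01. GJB6, which encodes the astrocyte connexin 30, differed by -0.21 (adjusted p = 0.143), and in cohort 7b by -0.83 (SE 0.21, adjusted p = 0.00127). In the complex that anchors the water channel AQP4, AGRN, a proteoglycan of the basement membrane, was higher in drinkers (0.21, SE 0.05, adjusted p = 0.00336), the only one called of 4. AGRN differed by 0.04 in cohort 5, 0.32 in cohort 7a (adjusted p = 0.000437) and 0.49 in cohort 7b (adjusted p = 5.5e-05). DTNA, which encodes alpha-dystrobrevin, differed by 0.10, and DAG1, which encodes dystroglycan, by 0.04.

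Of 17 genes of filaments and reactivity, 2 were lower in drinkers as a whole and none higher, and with cohort as a block 4 were lower and 1 was higher (29.4% against 33.2% of all genes). TIMP1, an inhibitor of metalloproteinases induced in reactive astrocytes, differed by -0.23 (SE 0.06, adjusted p = 0.00474), and MT1X, a metal-binding metallothionein whose probeset may also read near-identical metallothioneins, by -0.26 (SE 0.07, adjusted p = 0.0141). In cohort 5 TIMP1 differed by -0.05 and MT1X by -0.17. S100A10, often raised in reactive astrocytes, differed by -0.23 (adjusted p = 0.062) over all animals, -0.28 with cohort as a block (adjusted p = 0.0125) and -0.83 in cohort 7b (SE 0.16, adjusted p = 5.7e-05). The median of the 17 was -0.08, against -0.03 over all genes, and 5 of the 17 were positive. The gene called higher with cohort as a block was GBP2 (0.35, limma adjusted p = 0.000125). The 4 called lower in that fit were TIMP1, MT1X, S100A10 and STAT3 (the last at -0.48, limma adjusted p = 7.98e-05). In cohort 7b 2 of them were higher and 5 lower, 41.2% against 41.8% of all genes, with a median of -0.33 against -0.06 over all genes.

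Among receptors and secreted factors, FGFR3, a growth factor receptor of astrocytes, was higher (0.34, SE 0.09, adjusted p = 0.00692) and the adenosine receptor ADORA2B lower (-0.22, SE 0.07, adjusted p = 0.0327), 2 of 12 in all. In cohort 5 FGFR3 differed by 0.14 and ADORA2B by 0.13. BMPR1B, a receptor for bone morphogenetic proteins, differed by -0.44 (SE 0.19, adjusted p = 0.104) over all animals and by -0.33 with cohort as a block (adjusted p = 0.00187). Within cohorts BMPR1B differed by 0.13 in cohort 5, -0.71 in cohort 7a (SE 0.09, adjusted p = 9.09e-08) and -0.61 in cohort 7b (SE 0.12, adjusted p = 6.77e-05). Of 11 transcription factors, NFIB, which promotes the astrocyte fate, was the only one called (0.19, SE 0.06, adjusted p = 0.0406). Its difference was 0.63 in cohort 7b (SE 0.07, adjusted p = 1.74e-09), with -0.03 in cohort 5 and 0.22 in cohort 7a.

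None of 8 further genes of glutamate and glutamine handling was called over all animals without a block, and 6 of the 8 were negative. With cohort as a block 2 of 8 were called, GOT1 (-0.19, adjusted p = 0.0137) and GPT2 (-0.21, adjusted p = 0.0375). GOT1, a transaminase that makes glutamate from aspartate, differed by -0.21 (SE 0.08, adjusted p = 0.0515) over all animals, -0.24 in cohort 7a (adjusted p = 0.035) and -0.46 in cohort 7b (adjusted p = 0.00219). GPT2, the mitochondrial alanine transaminase, differed by -0.32 (adjusted p = 0.0896), and by -0.40 in cohort 7a (adjusted p = 0.0121). SLC38A1, a glutamine transporter found mainly on neurons, differed by -0.26 (adjusted p = 0.251). None of 7 genes of water and potassium balance and none of 3 genes of lipid handling was called over all animals without a block. With cohort as a block 1 of each list was called, the chloride channel CLCN2 (0.11, adjusted p = 0.0242) and the fatty acid desaturase FADS2 (0.25, adjusted p = 0.00358). CLCN2 had the lowest p of its list without a block as well (0.13, adjusted p = 0.0518). HEPACAM, an adhesion protein of astrocytes, differed by -0.31 in cohort 7a (SE 0.08, adjusted p = 0.00467), and FADS2 by 0.65 in cohort 7b (SE 0.14, adjusted p = 0.000182). In the metabolic group 1 of 6 was called, the fatty acid transporter SLC27A1 (0.27, SE 0.07, adjusted p = 0.0082), which differed by 0.06 in cohort 5.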

How the data were processed

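RNA of 43 animals was hybridized to 1 array each. The deposited values are RMA log2 values, which the authors made with the affy package by background correction and quantile normalization of all arrays together. They are not adjusted for processing batch. Probesets with exactly 1 gene symbol in the probe table were kept, and a probeset was dropped if 80% or more of its values fell under 3.5, which left 23815. Groups, cohorts and animals come from the labels. The 8 processing batches were recovered from the shift between the deposited values and the batch-adjusted values in the study's expression table, over 912 probesets. RNA integrity number (42 animals), age and intake come from the study's phenotype table and entered fits as covariates.

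Drinkers and controls were compared with limma 3.58.1 in R 4.3.3 as a design of 2 classes without covariates. The study's methods use the same design and adjust the values for batch by ComBat, which the deposited values are not. Drinkers and controls of 1 cohort were compared in a fit of 7 group means. The threshold was a Benjamini-Hochberg adjusted p of 0.05 over all tested probesets, and error is the SD or limma's SE with 95% intervals. Scripts were tested on simulated data. Animals are separate, so n counts animals. All tested probesets of the marker genes are named. Of every other gene list, counts and at most 3 genes with the lowest p between drinkers and controls are named, and likeness names the 10 genes with the highest r. GBP2 and STAT3 are named besides, for their calls with cohort as a block. The members and gene lists were chosen with earlier results of these data known. Alternatives were covariates, samples, filter, probeset choice, limma settings, threshold, centering and leaving out each animal.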

Additional observations from a re-analysis of the deposited data

Results flagged for a closer look

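For 2 probesets 1 array stood apart from its group, among 50 groups of 4 to 10 arrays examined, a number that chance alone would give (about 1 in 20 groups). GFAP MmuSTS.4827.1.S1_at was 11.49 in 1 control of cohort 5, against 12.02 in the next lowest of the 5 controls, a gap of 0.736 of the group's range, past the critical value for 5 arrays. The dimmer SLC1A3 probeset was 10.23 in 1 drinker of cohort 5, against 9.80 in the next highest of the 8 drinkers, a gap of 0.529 of the range, just past the critical value for 8 arrays.

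For 3 probesets the ethanol effect in cohorts 7a and 7b differed from that in cohort 5, by limma's test of that difference. It was -0.70 for S100B, 0.58 for SLC1A2 and -0.57 for GLUL MmugDNA.15517.1.S1_at, each on the log2 scale. At 3 of 10, the share is near the 31.4% of all tested probesets.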

How the results depend on the processing

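The count of marker probesets called between drinkers and controls, 0 of 10, was 2 with cohort as a block and with cohort and age, 4 in cohorts 7a and 7b alone with cohort as a block, and 1 with each array centered on its median. It stayed at 0 under the 9 other alternatives, and was 0 to 1 with 1 animal left out, the 1 being GFAP without a cohort 7a control. That centering moved the share of higher ones among all calls to 59.99%, against 34.8% as deposited, and in cohort 7b the median difference of all probesets to 0.04, against -0.06. In cohort 7a the count of 4 was 2 with the actin value, and 2 to 4 with 1 animal left out. In cohort 7b the count of 4 was 2 with processing batch and 1 with the RNA integrity number, and 2 to 5 with 1 animal left out, where a lone control is assumed to vary like the other groups. The count of 3 for the difference between cohorts was 1 with the RNA integrity number and 3 to 4 with 1 animal left out. The share of all tested probesets called between drinkers and controls also changed with the setting. It was 16% without a block, 33.1% with cohort and 22.5% with processing batch. A changed count therefore says nothing particular about the marker genes, and the cause of the changes in these counts was not tested. Counts for cohort 5, for cohort 4 against cohort 5 and for intake were 0 under every alternative run.

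Differences near 0 over all animals changed sign without being called. For SLC1A3 0.03 became -0.0032 with cohort, -0.034 with cohort and RNA integrity number, -0.0029 with cohort and age, -0.020 without cohort 4 and -0.23 with the gene's other probeset. For GLUL 0.04 became -0.017 with cohort and RNA integrity number, -0.0037 without cohort 4, and -0.16 and -0.47 with its other probesets. The GFAP difference of 0.24 was not near 0, and the gene's other probeset gave -0.037. With 1 animal left out SLC1A2 ran from -0.030 to 0.12 and ALDH1L1 from -0.041 to 0.089. No paired analysis was possible because replicate numbers in the labels run over all animals and no number is shared between groups. Signal limits GLUL MmugDNA.10582.1.S1_at, whose mean of 4.67 lies near the filter level of 3.5.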
